A study of Mus musculus with 8 samples.

Results

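Expression of 8 genes linked to fibrosis was followed in mpkCCDc14 cells, a mouse line of the kidney cortical collecting duct, after aldosterone. The genes were Ccn2 and Ccn1, which encode secreted matrix-associated proteins once called Ctgf and Cyr61, the endothelin gene Edn1, the thrombospondin gene Thbs1, the ankyrin repeat gene Ankrd1 and the transforming growth factor beta genes Tgfb1, Tgfb2 and Tgfb3. They were chosen by symbol, as all probes annotated to a listed gene that held values, which gave 8 probes for 8 of the 12746 named genes on the array. Matching by symbol used no ratio, but the list itself was drawn up with ratios of these arrays in view, and which of them weighed in it is not recorded. The p-values below come from a fit over all features, describe the genes within it and are not independent support for the choice. Cells were grown on collagen-coated permeable supports, kept in steroid-free serum, and given aldosterone at 1 µM for 6 h or 1 h, or ethanol for the same time. Each of 4 arrays per time set a Cy5-labelled aldosterone sample against a Cy3-labelled ethanol sample, so a log2 ratio above 0 is a higher signal with aldosterone.

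Ccn1 and Ccn2 belong to the CCN family of matricellular proteins, which bind integrins and growth factors. They and Ankrd1 are textbook targets of the transcriptional co-activators YAP and TAZ acting through TEAD factors, and Ccn2 is also a target of TGF-beta signalling through Smad proteins. Edn1 encodes the precursor of endothelin-1, a peptide that the collecting duct makes and that lowers sodium reabsorption there. Thbs1 encodes thrombospondin-1, a matrix protein that can release TGF-beta from its latent complex.

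Promoter sequences, from 250 bases before the annotated start to 50 after it, were found for 5 of the 8 genes in the RefSeq table of build GRCm38.p6 (Ccn1, Edn1, Ankrd1, Tgfb1 and Tgfb2). Those of Ccn1, Ankrd1 and Edn1 are shown because each holds the TEAD motif GGAATG, read on either strand. Capitals mark GGAATG, which reads CATTCC where it is on the opposite strand. They also mark CAGACA, a Smad motif. Last, they mark the TATA box motif TATAAA. They lie at chr3:145649936-145650235 (minus strand) for Ccn1, chr19:36119795-36120094 (minus strand) for Ankrd1 and chr13:42301226-42301525 (plus strand) for Edn1.
Ccn1: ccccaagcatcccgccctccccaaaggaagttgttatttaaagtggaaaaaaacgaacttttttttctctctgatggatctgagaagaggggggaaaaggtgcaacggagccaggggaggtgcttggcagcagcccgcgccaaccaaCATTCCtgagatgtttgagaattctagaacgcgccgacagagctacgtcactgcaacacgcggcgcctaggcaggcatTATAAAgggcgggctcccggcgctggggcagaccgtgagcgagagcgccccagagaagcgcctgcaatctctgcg
Ankrd1: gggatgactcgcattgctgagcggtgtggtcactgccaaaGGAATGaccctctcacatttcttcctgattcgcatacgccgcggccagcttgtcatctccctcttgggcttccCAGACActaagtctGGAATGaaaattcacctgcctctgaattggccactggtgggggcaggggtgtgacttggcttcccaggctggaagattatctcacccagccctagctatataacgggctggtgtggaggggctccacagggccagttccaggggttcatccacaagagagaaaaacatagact
Edn1: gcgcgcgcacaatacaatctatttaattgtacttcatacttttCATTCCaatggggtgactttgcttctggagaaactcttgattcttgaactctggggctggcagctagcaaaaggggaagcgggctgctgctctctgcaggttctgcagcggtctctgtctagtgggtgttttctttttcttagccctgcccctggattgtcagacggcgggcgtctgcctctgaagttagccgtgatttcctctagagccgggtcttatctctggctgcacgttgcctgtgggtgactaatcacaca
In Ccn1 the TEAD motif begins 103 bases before the start, on the opposite strand, and in Edn1 207 bases before it, also on the opposite strand. Ankrd1 holds it 210 and 123 bases before the start, on the strand of the gene. Of all 32851 promoters in the table, 14.7% hold GGAATG, so 3 of 5 promoters with a match is a description of these sequences and not a binding site or a cause. CAGACA, held by 21.0% of all promoters, was found in Ankrd1 and Tgfb2, and TATAAA, held by 13.6%, in Ccn1 and Tgfb2. Both strands were also searched for the corticosteroid receptor motif TGTTCT (19.0% of all promoters), for the palindrome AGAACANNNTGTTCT, which contains that motif on both strands (3 promoters in all), for the AP-1 motif TGANTCA (7.81%) and for the CArG box of serum response factor (1.63%). These letters are not in the windows of the 5 genes.

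The arrays differed in their spread and, at 1 h, in the ratios of some aldosterone target genes. The standard deviation of the log2 ratios over probes lay between 0.310 and 0.494 at 6 h and between 0.352 and 0.589 at 1 h, the widest being replicate 4 at 1 h. Sgk1, the sodium channel-activating kinase and a standard aldosterone target, had ratios of 2.65, 2.00, 1.53 and 1.46 at 6 h, against 1.65, 1.38, -0.64 and -0.16 at 1 h in order of replicate. Replicates 3 and 4 at 1 h thus lacked the increase of Sgk1 seen on the other 6 arrays. Fkbp5, another target, had 2.07 to 2.13 at 6 h, against 0.76, 0.69, 0.03 and 0.63 at 1 h, so that only replicate 3 at 1 h was near 0. Atp1b1, a further target, had 1.35, 1.30, 1.22 and 1.52 at 6 h, against 0.90, 0.73, 0.58 and 1.13 at 1 h. It was above 0 on every array and rose at 1 h (adjusted p = 0.000916 in the limma fit described below). The targets thus differed among themselves on replicates 3 and 4 at 1 h. Of 10 corticosteroid targets chosen as a check of the treatment, 6 rose and none fell at 6 h, where 7.11% of all features rose and 10.6% fell. At 1 h 3 of them rose and 2 fell, where 19.9% of all features rose and 21% fell. That list was chosen with earlier results of these arrays known, so it is not an independent check. Aldosterone samples carried Cy5 on all 8 arrays. A dye effect of a gene therefore cannot be told apart from a response at either time, and cancels, if constant, in the difference between the times. The ratios hold no levels, so neither the presence of a gene's transcript nor the collecting duct markers of the line could be checked from them, and fewer expressing cells and less RNA per cell cannot be told apart. Whether the replicates were separate cultures is not in the labels, so the p-values rest on the spread among arrays, which may be technical, and the precision is that of 4 arrays a time.

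Of the 7 genes with values at both times, 1 fell and 6 did not pass at 6 h, in limma's fit over all 15079 features with Benjamini-Hochberg adjustment at 0.05. At that time 17.7% of all features passed (7.11% above vehicle and 10.6% below). At 1 h, 3 rose (Thbs1, Ankrd1 and Ccn1), 1 fell (Tgfb1) and 3 did not pass, where 40.9% of all features passed (19.9% above and 21% below). Tgfb1 was the gene that fell at both times. Beside those shares of all features, neither count is read as particular to these genes. The labels name a one-class SAM test, and a version of it was written for these data, with only 16 sign patterns possible for 4 arrays. At a false discovery rate of 5%, 3 rose by it (Ccn2, Edn1 and Thbs1) and 2 fell (Tgfb1 and Tgfb2) at 6 h, where 35.2% of all features were called. At 1 h 3 rose (Thbs1, Ankrd1 and Ccn1) and 2 fell (Tgfb1 and Tgfb2), where 48.9% of all features were called. The limma count at 6 h was 5 with the arrays scaled to a common spread (33.2% of features called; Ccn2, Edn1 and Thbs1 above 0, Tgfb1 and Tgfb2 below), 4 with quantile normalization (32.2%; the same without Edn1) and 2 with array weights (26.8%; Ccn2 and Tgfb1). Errors below are standard errors of the limma fit on the values as deposited, with n = 4 arrays at each time.

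**Figure D1:**
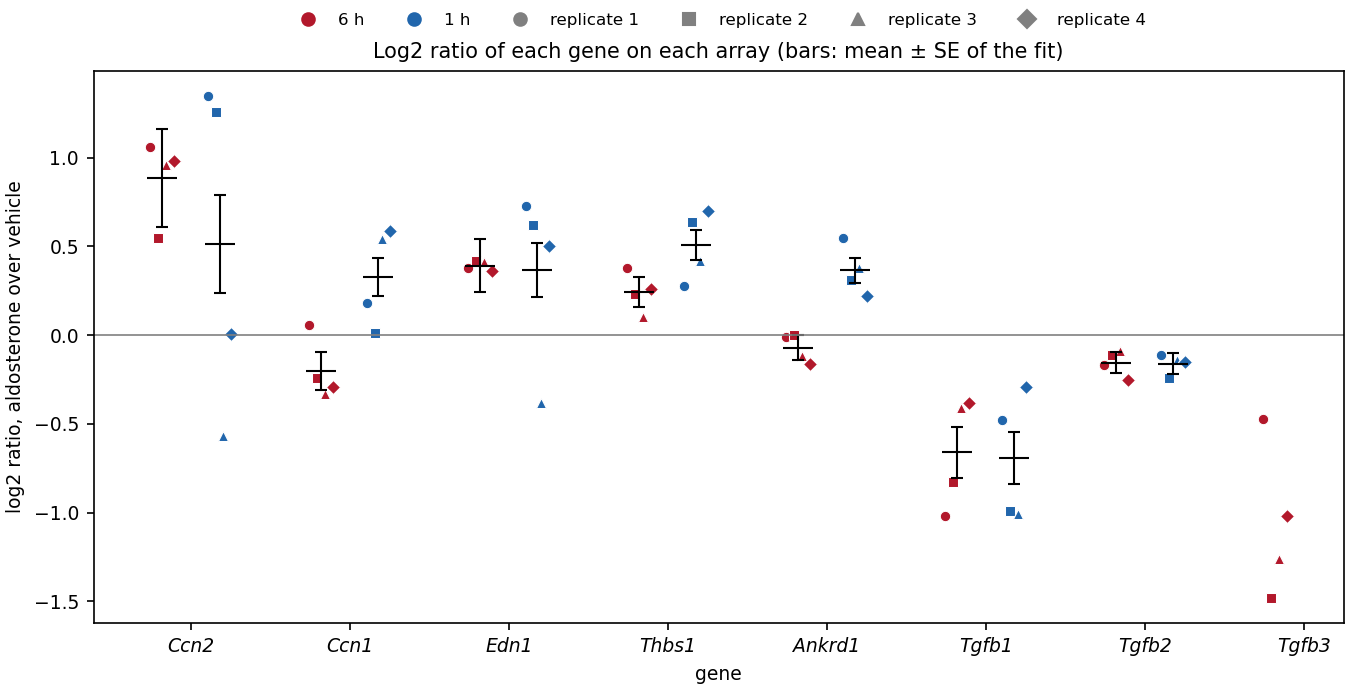
Log2 ratio of aldosterone over vehicle (vertical axis) for the 8 genes (horizontal axis), 6 h in red left of 1 h in blue, with a symbol for each replicate and black bars for the mean ± SE of the fit. Ccn2 is spread from 0.55 to 1.06 at 6 h and from -0.57 to 1.35 at 1 h, Tgfb1 lies below 0 on all 8 arrays, and Tgfb3 has values at 6 h only and no bar.

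Ccn2 had the highest mean ratio of the 8 genes at 6 h. Its log2 ratios were 1.06, 0.55, 0.96 and 0.98 on the 4 arrays at 6 h, against 1.35, 1.26, -0.57 and 0.01 at 1 h. All 4 arrays at 6 h were above 0, while at 1 h replicates 1 and 2 were the highest values of the gene and replicates 3 and 4 were below every 6 h array, so the times overlapped. Within each 6 h array, from 97.0% to 99.6% of all features had a lower ratio than Ccn2, and within the 1 h arrays 99.8%, 99.6%, 5.67% and 50.7% did. The mean was 0.89 ± 0.28 at 6 h, or 1.85-fold (adjusted p = 0.0524), and 0.51 ± 0.28 at 1 h, or 1.43-fold (adjusted p = 0.161), and neither passed. The fit shares 1 spread between the times, and for Ccn2 most of that spread lay at 1 h. Fitted on the 6 h arrays alone, the same mean had a standard error of 0.098 and passed (adjusted p = 0.0133, with 15.6% of features called). In the fit of both times, the 6 h mean did not pass with any single 6 h array left out (adjusted p from 0.0887 to 0.153). It passed with any single 1 h array left out (adjusted p from 0.025 to 0.0472). Of 15 alternatives, it passed in 8. At 1 h the mean was 0.87 and passed without replicate 3 (adjusted p = 0.0249), while it was 0.23 without replicate 1 (adjusted p = 0.535). Without replicate 2 it was 0.26 (adjusted p = 0.504).

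Edn1, like Ccn2, was above 0 on all 6 h arrays and lowest on replicate 3 at 1 h. On other arrays the genes differed. At 6 h Ccn2 was lowest on replicate 2 (0.55), where Edn1 was highest (0.42). On replicate 4 at 1 h Ccn2 was at 0.01 and Edn1 at 0.50. The ratios of Edn1 were 0.38, 0.42, 0.41 and 0.36 at 6 h, against 0.73, 0.62, -0.38 and 0.50 at 1 h. The 6 h arrays lay within 0.06 of each other, and replicate 3 at 1 h was the single array below 0. The means were 0.39 ± 0.15 at 6 h (1.31-fold, adjusted p = 0.0999) and 0.37 ± 0.15 at 1 h (1.29-fold, adjusted p = 0.0768), and neither passed. Without replicate 3 at 1 h, the lowest array of Edn1, both passed. The mean at 6 h was then 0.39 (adjusted p = 0.0101, with 13.9% of features called). At 1 h it was 0.62 (adjusted p = 0.00557, with 30.0%). The 6 h arrays fitted alone also passed (adjusted p = 0.0185, with 15.6%). With any other single array left out, neither mean passed. Adjusted p then ran from 0.0974 to 0.212 at 6 h and from 0.0903 to 0.27 at 1 h.

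**Figure D2:**
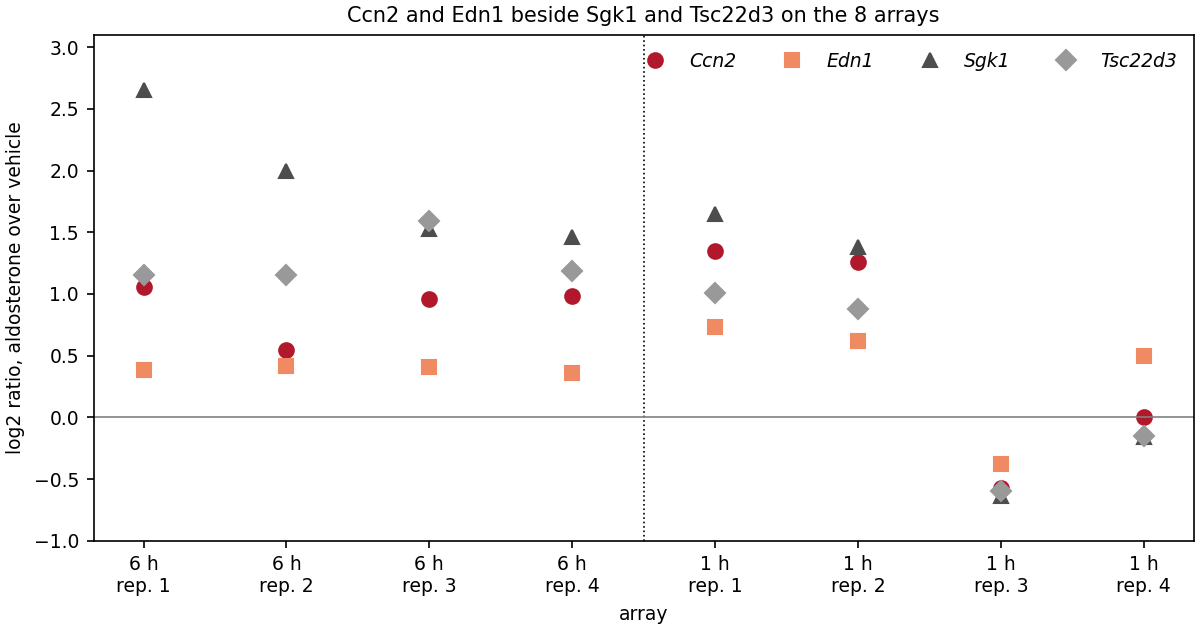
Log2 ratio of aldosterone over vehicle (vertical axis) on each of the 8 arrays (horizontal axis, 6 h left of the dotted line and 1 h right of it) for Ccn2, Edn1, Sgk1 and Tsc22d3, 1 symbol per gene. All 4 genes are below 0 on replicate 3 at 1 h and above 0 on the other 1 h replicates 1 and 2 and on the 6 h arrays, while on replicate 4 at 1 h Edn1 is at 0.50 and Sgk1 at -0.16.

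Across the 8 arrays, which share dyes and cell line, Pearson's correlation of Ccn2 with Edn1 was 0.80. It was 0.83 with Sgk1 and 0.86 with Tsc22d3, which encodes the corticosteroid-induced protein GILZ and had 1.01, 0.88, -0.60 and -0.15 at 1 h. Among 12535 other named genes Tsc22d3 was the 28th closest to Ccn2, Sgk1 the 49th and Edn1 the 78th. The 5 closest were Oca2 (r = 0.96), 4930432L08Rik (0.95), Odf2l (0.94), Trib1 (0.93) and Phf20 (0.92). Their ratios differed in size: Oca2 stayed between -0.33 and 0.09, while Trib1 had 0.47 to 0.51 at 6 h, against 0.73, 1.17, -0.50 and -0.07 at 1 h. The 5 closest to Edn1 were Cdv3 (0.96), Nsa2 (0.95), Pcdhgb5 (0.94), Mgarp (0.93) and Gria3 (0.92), each lowest on replicate 3 at 1 h. With 8 points and so many genes these values only describe the arrays. Replicate 3 at 1 h was the lowest array of Ccn2, Edn1, Sgk1 and Tsc22d3, and no correlation was computed without it.

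Ccn1 and Ankrd1, the other genes known as YAP and TAZ targets, did not follow Ccn2 from array to array (Pearson's correlation with Ccn2 of -0.65 and -0.15 over the 8 arrays). Ccn1 had ratios of 0.06, -0.24, -0.33 and -0.29 at 6 h, against 0.18, 0.01, 0.54 and 0.59 at 1 h. At 6 h 3 of the 4 arrays were below 0 and at 1 h all were above it, and replicate 1 at 6 h overlapped the 1 h range. Ccn1 rose at 1 h (0.33 ± 0.11, 1.26-fold, adjusted p = 0.0343) and did not pass at 6 h (-0.20 ± 0.11, adjusted p = 0.216). The call at 1 h was lost without replicate 3 (0.26, adjusted p = 0.137) or replicate 4 (0.24, adjusted p = 0.135), which were the arrays where Ccn2 and Sgk1 were lowest, and also with the arrays scaled to a common spread (0.26, adjusted p = 0.0618), with quantile normalization (0.29, adjusted p = 0.0541) and with the 1 h arrays fitted alone (0.33, adjusted p = 0.0691).

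Ankrd1, which encodes a nuclear and sarcomeric ankyrin repeat protein, had ratios of -0.01, 0.00, -0.12 and -0.16 at 6 h, against 0.55, 0.31, 0.38 and 0.22 at 1 h. Every 6 h array was below every 1 h array. It was the 1 gene of 7 whose times did not overlap, which held for 9.8% of all features (4.75% with the 6 h arrays below). Ankrd1 rose at 1 h (0.36 ± 0.07, 1.29-fold, adjusted p = 0.0046) and did not pass at 6 h (-0.07 ± 0.07, adjusted p = 0.504). Its 1 h call held without each array in turn (adjusted p from 0.00556 to 0.0196).

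Thbs1 had ratios of 0.38, 0.23, 0.10 and 0.26 at 6 h, against 0.28, 0.64, 0.42 and 0.70 at 1 h. All 8 arrays were above 0, with 3 of the 4 arrays at 1 h above the highest 6 h array. Thbs1 rose at 1 h (0.51 ± 0.08, 1.42-fold, adjusted p = 0.0025) and did not pass at 6 h (0.24 ± 0.08, 1.18-fold, adjusted p = 0.072). The 1 h call held without each array in turn, with adjusted p between 0.00346 and 0.0104.

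Tgfb1, the isoform most studied in kidney fibrosis, had ratios of -1.02, -0.83, -0.41 and -0.38 at 6 h, against -0.48, -0.99, -1.01 and -0.29 at 1 h. All 8 arrays were below 0 and the times covered nearly the same range. Tgfb1 fell at 6 h (-0.66 ± 0.14, 0.633-fold, adjusted p = 0.0155) and at 1 h (-0.69 ± 0.14, 0.619-fold, adjusted p = 0.00591). The share of all features with a lower ratio ran from 0.878% to 16.1% on the 6 h arrays and from 0.753% to 29.8% on the 1 h arrays. The 6 h call was lost without replicate 1 (-0.54, adjusted p = 0.0587) or replicate 2 (-0.60, adjusted p = 0.0637), and the 1 h call held without each array.

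Tgfb2 lay just below 0 on every array, at -0.17, -0.11, -0.09 and -0.25 at 6 h, against -0.11, -0.24, -0.14 and -0.15 at 1 h. Its means of -0.16 ± 0.06 at 6 h (adjusted p = 0.104) and -0.16 ± 0.06 at 1 h (adjusted p = 0.059) did not pass. Tgfb3 had values at 6 h only, so it did not enter the fit of both times. Its 6 h ratios were -0.47, -1.48, -1.26 and -1.02, all below 0 and the lowest of the 8 genes on 3 of the 4 arrays. In the fit of the 6 h arrays alone it fell (-1.06 ± 0.16, adjusted p = 0.0204, with 15.6% of features called). That fit rests on 3 residual degrees of freedom. No TGF-beta ligand gene was above vehicle on any array with a value.

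**Figure D3:**
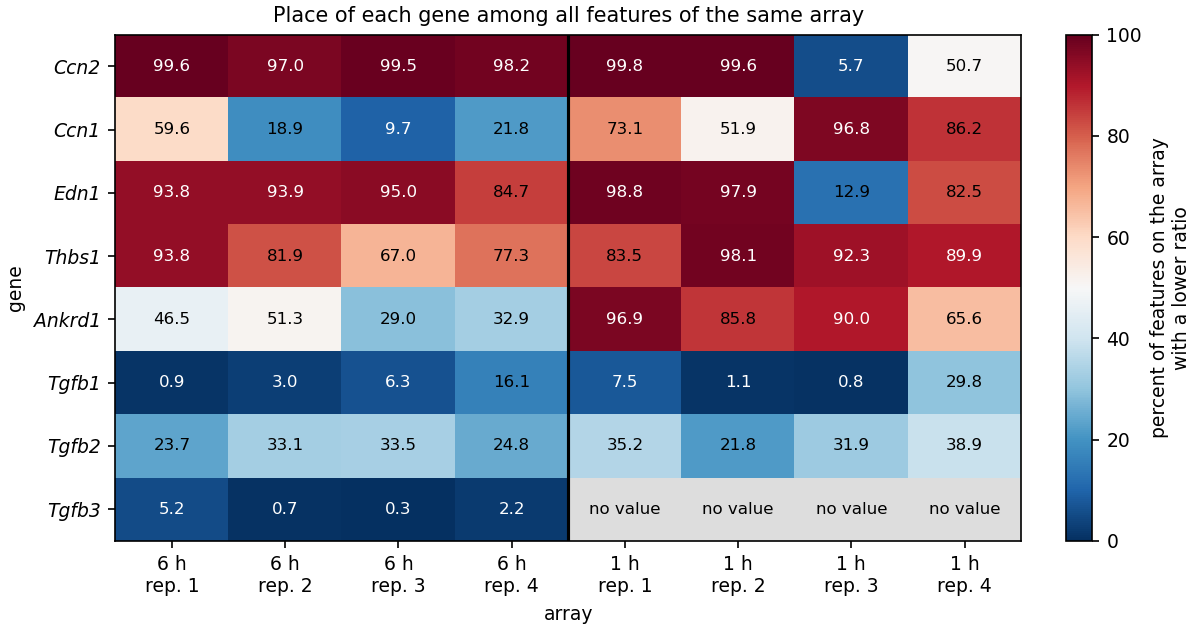
Share of all features on an array (colour and number, in percent) with a lower log2 ratio than the gene, for the 8 genes (rows) on the 6 h arrays (left of the line) and 1 h arrays (right of it), with grey for no value. Ccn2 lies at 97.0% to 99.6% on the 6 h arrays and at 99.8% and 99.6% on replicates 1 and 2 at 1 h. Ankrd1 lies at 29.0% to 51.3% at 6 h, against 65.6% to 96.9% at 1 h.

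None of the 7 genes passed the test of 6 h minus 1 h, the comparison in which a constant dye difference cancels, and 0.0398% of all features did (6 of 15079). At an unadjusted p under 0.05, 3 of the 7 did (Ccn1, Ankrd1 and Thbs1), beside 16.1% of all features. The difference was -0.53 ± 0.15 for Ccn1 (adjusted p = 0.201), -0.44 ± 0.10 for Ankrd1 (adjusted p = 0.185) and -0.27 ± 0.12 for Thbs1 (adjusted p = 0.306). For Ccn2 it was 0.38 ± 0.39 (adjusted p = 0.629), with a 95% interval from -0.50 to 1.25, so these arrays set wide bounds on it. For Tgfb2, the gene with the smallest spread between arrays, the interval ran from -0.19 to 0.20. Edn1 and Tgfb1 had differences of 0.03 ± 0.21 and 0.03 ± 0.20, with intervals that reached about as far on either side of 0 (-0.45 to 0.50, and -0.43 to 0.49).

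**Figure D4:**
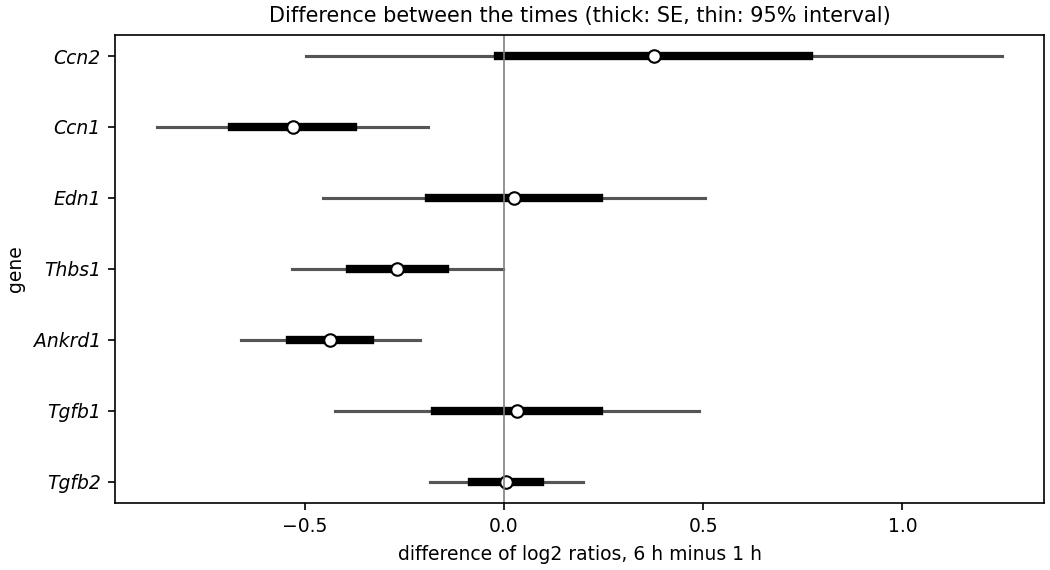
Difference of the log2 ratios, 6 h minus 1 h (horizontal axis), for the 7 genes with values at both times (vertical axis), with points for the estimate, thick lines for the SE and thin lines for the 95% interval of the fit before adjustment over features. The intervals of Ccn1, Thbs1 and Ankrd1 lie below 0, and none of the 7 passes after adjustment.

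The other genes of these pathways were read from lists chosen with earlier results of these arrays known. Their counts stand beside 17.7% of features called at 6 h and 40.9% at 1 h, and the median ratio of all features was 0.00 at both times. At an unadjusted p under 0.05 the share of all features was 34.5% at 6 h. In the CCN family 5 genes were measured, and none passed at 6 h (2 did at an unadjusted p under 0.05), while Ccn1 rose and Ccn4 fell at 1 h. The list's median was 0.01 at 6 h and 0.17 at 1 h. Ccn3, once called Nov, was at -0.56, -0.57, -0.34 and -0.43 at 6 h, against 0.49, -0.71, -0.05 and -0.22 at 1 h. Its mean of -0.48 ± 0.15 at 6 h, opposite in sign to that of Ccn2, did not pass (adjusted p = 0.0565). It passed with the 6 h arrays fitted alone (adjusted p = 0.0185), with the arrays scaled (0.0236) and with quantile normalization (0.0326).

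Among 7 genes of the endothelin system, none passed at 6 h (4 at an unadjusted p under 0.05, against 34.5% of all features), and 4 fell and none rose at 1 h, with a list median of -0.28 at 6 h and -0.44 at 1 h. Ednrb, the endothelin B receptor, fell at 1 h (-1.30 ± 0.17, adjusted p = 0.00134) and was at -0.36 ± 0.17 at 6 h (adjusted p = 0.163). Kel, a metallopeptidase that processes endothelin-3 in humans, fell at 1 h (-0.54 ± 0.11, adjusted p = 0.00579). The other two called genes, named here after their values were seen, were the ligand gene Edn2 (-0.60 ± 0.15, adjusted p = 0.0135) and the peptidase gene Mme (-0.44 ± 0.11, adjusted p = 0.0129). Edn1 was thus above 0 in the mean at 1 h and Edn2 below. Ednrb, Kel, Edn2 and Mme were each lowest on replicate 4 at 1 h, the array with the widest spread (-1.94, -0.87, -1.10 and -0.89). They were below 0 on the other 1 h arrays as well, with Mme at -0.23, -0.33 and -0.32.

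Of 7 thrombospondins and their receptors, 1 rose and 1 fell at 6 h, and 1 rose and 2 fell at 1 h, with list medians of 0.04 at both times. Thbs2, opposite to Thbs1, fell at 6 h (-0.48 ± 0.14, adjusted p = 0.0414) and at 1 h (-0.64 ± 0.14, adjusted p = 0.00698), but the 6 h call was lost without any given 6 h array (adjusted p from 0.0509 to 0.173) and with the 6 h arrays fitted alone (adjusted p = 0.0541). Cd47, the thrombospondin receptor, rose at 6 h as the mean of 3 probes (0.30 ± 0.07, adjusted p = 0.0143). None of those probes passed by itself at 6 h (0.22, 0.21 and 0.48, adjusted p from 0.0711 to 0.206), and the call of the mean was lost without replicate 1, 2 or 4 at 6 h (adjusted p from 0.0508 to 0.0568).

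Of 13 TGF-beta receptors, latent binding proteins and activators, 1 rose and 1 fell at 6 h, and 4 rose and 2 fell at 1 h (medians -0.02 and 0.01). Ltbp3, which tethers latent TGF-beta, rose at 6 h (0.36 ± 0.08, adjusted p = 0.0133) and at 1 h (0.35 ± 0.08, adjusted p = 0.00658), the 6 h call being lost without replicate 2 (adjusted p = 0.0573) or 4 (0.0518). Acvrl1, a type I receptor, fell at 1 h (-0.33 ± 0.08, adjusted p = 0.0106) and was at -0.11 ± 0.08 at 6 h (adjusted p = 0.35). Among 16 Smads and regulators, none rose and 1 fell at 6 h, and 2 rose and 1 fell at 1 h (medians -0.04 and 0.06). Smad2, a receptor-activated Smad, rose at 1 h (0.68 ± 0.09, adjusted p = 0.00133) and was at 0.26 ± 0.09 at 6 h (adjusted p = 0.0687), while Smad3, the other receptor-activated Smad of TGF-beta, fell at 6 h (-0.51 ± 0.13, adjusted p = 0.027) and was at 0.13 ± 0.13 at 1 h (adjusted p = 0.42). The Smad3 call was lost without replicate 2, 3 or 4 at 6 h (adjusted p from 0.0802 to 0.1), and its ratio there was -0.36 without replicate 2. It was also lost with the 6 h arrays fitted alone (adjusted p = 0.0646).

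Of 32 genes of the TGF-beta response and matrix, 3 rose and 4 fell at 6 h, and 3 rose and 8 fell at 1 h (medians -0.05 and -0.06). Col1a1, the fibrillar collagen chain, fell at 1 h (-0.65 ± 0.10, adjusted p = 0.00232) and was at -0.17 ± 0.10 at 6 h (adjusted p = 0.288). Cnn1, the smooth muscle calponin, fell at 1 h (-0.79 ± 0.10, adjusted p = 0.0011) and was at -0.26 ± 0.10 at 6 h (adjusted p = 0.0913). Of 8 fibroblast and stromal markers, 1 rose and 1 fell at 6 h, and none rose and 2 fell at 1 h, and of 4 endothelial markers none passed at 6 h and 3 fell at 1 h. Of 8 principal cell markers, 1 rose and 1 fell at 6 h, and 1 rose and 2 fell at 1 h. Of 6 intercalated cell markers, 1 rose and 1 fell at 6 h, and 1 rose and 3 fell at 1 h. Among 6 markers of other nephron parts, none passed at 6 h and 1 rose at 1 h. Of 2 blood markers, 1 fell at 6 h and 1 rose at 1 h. The samples were a single collecting duct line, so these counts are not read as numbers of cells of a type. Why the markers changed was not tested.

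Among 18 genes of the YAP, TAZ and TEAD pathway, 1 rose and none fell at 6 h, and 4 rose and 1 fell at 1 h (medians 0.04 and 0.09). Yap1 rose at 1 h (0.49 ± 0.09, adjusted p = 0.00389) and was at 0.27 ± 0.09 at 6 h (adjusted p = 0.0703). Tead2, a TEAD factor, rose at 1 h (0.37 ± 0.08, adjusted p = 0.0058) and was at 0.23 ± 0.08 at 6 h (adjusted p = 0.0658). Of 16 genes for serum response factor, its MRTF co-activators and actin regulation, 2 rose and 1 fell at 6 h, and 5 rose and none fell at 1 h (medians 0.06 and 0.18). Flna, the actin cross-linker filamin A, rose at 1 h (0.53 ± 0.08, adjusted p = 0.00227) and was at 0.23 ± 0.08 at 6 h (adjusted p = 0.0873). Rock1, a kinase downstream of RhoA, rose at 6 h (0.26 ± 0.07, adjusted p = 0.0315) and at 1 h (0.33 ± 0.07, adjusted p = 0.00586), and its 6 h call was lost without replicate 2, 3 or 4 (adjusted p from 0.1 to 0.113).

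Of 22 other growth factors linked to fibrosis, 2 rose and 3 fell at 6 h, and 4 rose and 5 fell at 1 h (medians 0.03 and 0.02). Ereg, which encodes the EGF receptor ligand epiregulin, fell at 6 h (-1.46 ± 0.14, 0.363-fold, adjusted p = 0.000638) and at 1 h (-0.98 ± 0.14, adjusted p = 0.00158). Its 8 ratios were -1.15, -1.83, -1.20 and -1.66 at 6 h, against -1.18, -1.31, -0.75 and -0.67 at 1 h, all below those of Tgfb1 on the same array except replicate 3 at 1 h. Bmp4, a bone morphogenetic protein of the TGF-beta superfamily, fell at 1 h (-0.60 ± 0.08, adjusted p = 0.00135) and was at -0.20 ± 0.08 at 6 h (adjusted p = 0.118). For 6 h minus 1 h none of these 9 lists held a call. At an unadjusted p under 0.05, 16.1% of all features passed. The lists ran from 0 of 18 genes for YAP, TAZ and TEAD to 3 of 7 for the endothelin system, with 8 of 32 for the TGF-beta response and matrix.

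**Figure D5:**
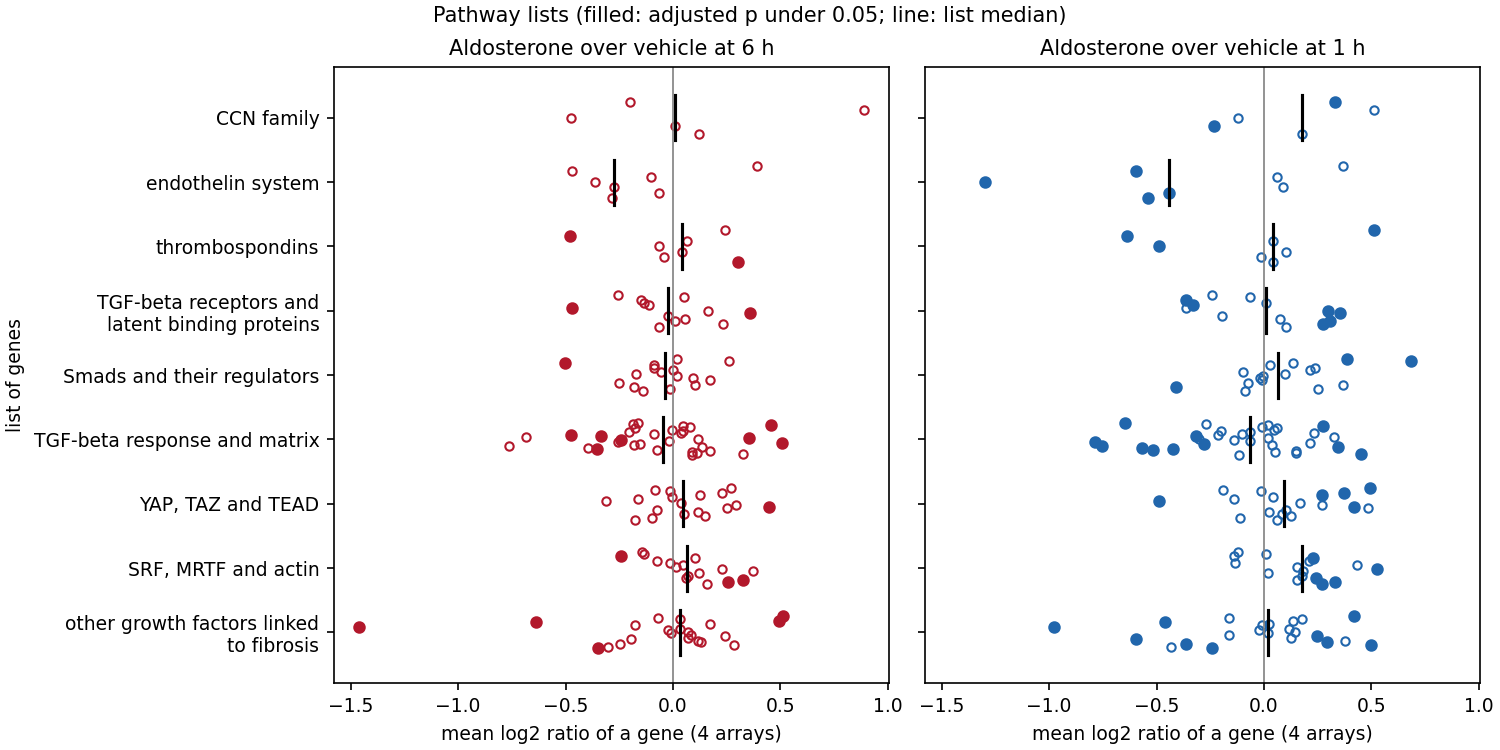
Mean log2 ratio of each measured gene (horizontal axis, 4 arrays a time) in the 9 pathway lists (vertical axis) at 6 h (left) and 1 h (right), with filled points for adjusted p under 0.05 and black lines for list medians. Most lists straddle 0 at both times, and the endothelin list has its median at -0.44 at 1 h.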

How the data were processed

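The study used 8 dual-colour arrays of mpkCCDc14 RNA, with aldosterone (1 µM, for 6 h or 1 h) set against time-matched ethanol on 4 arrays a time. Per the labels, slides were read with a GenePix 4.0 scanner and R with Bioconductor served to normalize the ratios. The authors deposited log2 of Cy5 (aldosterone) over Cy3 (vehicle). How the ratios were normalized, any background correction and the handling of repeat spots are not stated per the labels (not given in the sources used here), and scanner intensities were not used here. Array medians lay between -0.01 and 0.00. All pairs of arrays correlated above 0 (Pearson's r over probes from 0.308 to 0.707).

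Of 16361 probes, 13768 had 1 gene symbol in the platform annotation, 13 had several and 2580 were not listed. Probes of 1 symbol were averaged, and a feature was tested if it had at least 3 values at each time (12536 genes and 2543 unnamed probes). Limma 3.58.1 in R 4.3.3 was fitted with a mean for each time (6 residual and 3.73 prior degrees of freedom), two-sided, adjusted by Benjamini-Hochberg over all features at 0.05, and tested on simulated data. The labels name a one-class SAM test. A version of it written here, with the median standard error as its added constant, was an alternative. Other alternatives were other scalings, moderation, array weights, each time alone and each array left out. The members and 10 gene lists were chosen with earlier results of these data known. Every member is named, and of each list the genes with the smallest p over the 3 comparisons (2, or 1 in lists with under 5 genes besides the members), with the 5 genes closest to Ccn2 and to Edn1. Sgk1, Tsc22d3, Ccn4, Edn2 and Mme are named outside that rule. Figures used matplotlib 3.10.9 in Python 3.11.15.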

Additional observations from a re-analysis of the deposited data

Results flagged for a closer look

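Tgfb3 held values on the 4 arrays at 6 h and on none at 1 h, so it is outside the comparison of both times. Fitted on the 6 h arrays alone, its mean log2 ratio was -1.06 (limma adjusted p = 0.0204), and all 4 arrays were below 0.

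Fkbp5, an immunophilin gene used to check the treatment, differed between the times in the test of the difference itself, with 1.57 ± 0.15 for 6 h minus 1 h (limma adjusted p = 0.0123). That call was lost with quantile normalization (adjusted p = 0.0541) and without replicate 1, 2 or 3 at 6 h or replicate 4 at 1 h (adjusted p from 0.0533 to 0.0769). None of the 7 genes with both times differed by this test, and no array of any of them stood apart from the other arrays of its time by Dixon's criterion for 4 values.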

How the results depend on the processing

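No paired analysis was possible because the labels give replicate numbers to only some arrays, of 6 h, and none to those of 1 h. At 6 h the number of the 7 genes called depended on the processing: 1 as reported, 5 with the arrays scaled to a common spread (33.2% of all features called), 4 with quantile normalization (32.2%), 2 with array weights (26.8%) and 5 by SAM (35.2%). With the 6 h arrays fitted alone (15.6%) 4 of the 8 genes were called, Tgfb3 and 3 of the 7 (Ccn2, Edn1 and Tgfb1). With an array left out the count of the 7 ranged from 0 to 3. It was 0 without replicate 1 or 2 at 6 h (11.5% and 8.24% of all features called), 2 without replicate 1 or 2 at 1 h (15.0% and 15.3%) and 3 without replicate 3 or 4 at 1 h (13.9% and 26.5%), so the 1 h arrays enter the 6 h calls through the shared spread. At 1 h the 4 calls ranged from 3 to 5 over the alternatives (5 by SAM, with 48.9% of features called), and for the difference the count was 0 under each one run. The filter for values on all 8 arrays left the same features.

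Of 308 values of the 7 genes under alternatives, 271 kept their direction and side of the threshold, 19 newly passed, 7 no longer did and 11 changed sign. All 11 were differences between the times that had not passed. For Edn1 the difference ranged from -0.22 (without replicate 3 at 1 h) to 0.15 with an array left out. For Tgfb1 it was -0.12 with the arrays scaled and ranged from -0.073 to 0.17 with an array left out, below 0 without replicate 3 or 4 at 6 h or 2 or 3 at 1 h. For Tgfb2 it was -0.024 scaled and -0.026 with quantile normalization, and ranged from -0.022 to 0.037 with an array left out. Among other genes, Ccn3 at 1 h ranged from -0.33 to 0.073 (without replicate 2), a Cd47 probe at 1 h was at -0.065, the difference of Ltbp3 ranged from -0.077 to 0.050, and that of Rock1 was 0.017 scaled and 0.0070 with quantile normalization. Some list genes not called at 6 h as reported newly passed there. Ccn3, Kel, Smad2, Cnn1, Yap1, Tead2 and Flna did so both with the arrays scaled and with quantile normalization. Ednrb did so with the arrays scaled. Counts of the gene lists moved by over 1.5 times, or to or from 0, in 61 of 150 alternatives at 6 h, 18 of 150 at 1 h and 6 of 140 for the difference. The cause was not tested. How far each spot stood above its background is not known here, which limits every ratio.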
